A study of Mus musculus with 2 samples.

Results

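The cone opsins Opn1sw and Opn1mw and 3 nuclear receptors known for acting on them, Thrb, Rxrg and Rorb, were followed cell by cell in mouse retina. These 5 genes were taken by symbol from the 32285 genes of the count matrices, and each symbol matched 1 row. Cones were barcodes in which the cone phototransduction genes Arr3, Gnat2, Pde6h and Gngt2 together made up at least 1% of unique molecular identifiers (UMIs). That rule found 368 cones among 13891 kept barcodes (2.65%) in a library from mice kept under short-wavelength light, and 142 among 5428 (2.62%) in a library from mice kept under full-spectrum white light. In both groups exposure began at postnatal day 14 and lasted 2 weeks. Strain, genotype and sex, and how many mice gave each library, are not given in the sources used here. Each light condition was 1 library of whole retina, so there is no replicate, and what differs between lights may be a matter of the libraries. Brackets hold 95% intervals, which take in counting error and no other source of spread.

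Opn1sw encodes the short-wavelength opsin and Opn1mw the medium-wavelength opsin, the light-sensing proteins of cones. Many mouse cones make both, with more Opn1mw in dorsal and more Opn1sw in ventral retina, while a minority of cones makes Opn1sw alone. Thrb encodes the thyroid hormone receptor TRβ, whose cone isoform is needed for Opn1mw and restrains Opn1sw. Rxrg encodes the retinoid X receptor RXRγ, a partner of TRβ that also restrains Opn1sw, and Rorb encodes the orphan receptor RORβ, which activates Opn1sw and is needed for rods.

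For both opsin genes, the 250 bases before the RefSeq transcription start are shown, 5′ to 3′ on the strand of the gene, from the GRCm38.p6 build. Receptor binding was not tested. Capitals mark the nuclear receptor half-site AGGTCA on either strand, where the reverse strand reads TGACCT.
Opn1sw, chr6:29380514-29380763, minus strand: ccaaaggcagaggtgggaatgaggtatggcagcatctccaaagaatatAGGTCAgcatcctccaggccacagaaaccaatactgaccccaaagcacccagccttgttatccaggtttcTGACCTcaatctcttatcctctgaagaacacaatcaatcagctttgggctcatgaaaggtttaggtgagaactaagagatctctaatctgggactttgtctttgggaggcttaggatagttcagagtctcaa
Opn1mw, chrX:74127216-74127465, plus strand: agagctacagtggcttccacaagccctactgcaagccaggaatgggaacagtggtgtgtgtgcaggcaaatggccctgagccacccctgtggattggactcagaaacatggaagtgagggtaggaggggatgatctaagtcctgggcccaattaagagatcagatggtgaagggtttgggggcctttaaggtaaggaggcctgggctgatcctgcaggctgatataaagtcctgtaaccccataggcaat
The Opn1sw window held 2 half-sites, which begin 202 and 132 bases before the start and lie on opposite strands. The Opn1mw window held 0. Of 32851 windows of that length in RefSeq promoters, 14.0% held at least 1 such hexamer and 1.36% held at least 2. TAATCC, the core of sites for the photoreceptor factors CRX and OTX2, was in neither opsin window and in 6.25% of all windows. These are matches of letters only. The windows of Thrb, Rxrg and Rorb were searched in the same way: 1 of 2 Thrb windows held an AGGTCA and a TAATCC, 1 of 2 Rxrg windows held an AGGTCA, and the 2 Rorb windows held neither.

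By the GENCODE annotation of mm10, Opn1sw (ENSMUSG00000058831) spans chr6:29376671-29388468 on the minus strand and Opn1mw (ENSMUSG00000031394) chrX:74127464-74150760 on the plus strand. The RefSeq window of Opn1sw lies inside this span, so the GENCODE gene reaches upstream of the RefSeq start. Thrb (ENSMUSG00000021779) spans chr14:17660261-18038090, plus strand. Rxrg (ENSMUSG00000015843) spans chr1:167598384-167639623, plus strand, and Rorb (ENSMUSG00000036192) spans chr19:18930605-19111196, minus strand. Opn1sw overlaps Calu and Thrb overlaps the antisense gene Gm48321, each on the opposite strand and each a row of the matrices. Whether the counting used strand or reads in introns is not given in the sources used here. TRβ isoforms share a single row and cannot be told apart.

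The short-wavelength library held 51681469 UMIs in 16106 barcodes and the white-light library 20952589 in 5707. Cones had a median of 6392.5 and 6322 UMIs, against 2321 and 2731 in rods. Cone genes outside the selection rule marked the cones: Cngb3, a channel subunit, stood at 3137 and 2893 CPM (UMIs of the gene per 1000000 UMIs of the summed cells) in cones and 14.7 and 14.3 CPM in rods. Rod RNA was present too. A panel of rod markers that includes Gnat1, Sag and Pde6g made up a median of 1.10% and 1.27% of UMIs in cones, against 2.20% and 2.34% in rods. The libraries shared 26 barcode sequences, of which 1 was a short-wavelength cone and 0 were white-light cones.

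Levels of the opsins set cones apart from all other classes. In cones, Opn1sw stood at 8571 CPM (8454 to 8690) in the short-wavelength library and 8828 CPM (8635 to 9024) in the white-light library. In rods, defined by rod markers, it stood at 51.6 and 48.3 CPM, so cones were 166-fold (158 to 174) and 183-fold (170 to 197) higher. Opn1mw stood at 4553 and 4911 CPM in cones and at 31.5 and 31.7 CPM in rods, 144-fold (136 to 154) and 155-fold (141 to 169) apart.

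Rods, with no known use for cone opsin, were taken as the background for both genes. In barcodes with rod bipolar markers Opn1sw stood at 38.5 CPM (26.0 to 55.0) and 29.9 CPM (14.3 to 55.0), and in those with microglia or macrophage markers at 31.6 CPM (14.4 to 59.9) and 15.9 CPM (1.93 to 57.6). These intervals overlap each other and reach the rod level. In barcodes with markers of Müller glia, the supporting glia of the retina, Opn1sw stood lower than in rods, at 22.01 CPM (10.6 to 40.5) and 12.4 CPM (2.55 to 36.2). These barcodes had a median of 6106 and 8036 UMIs, against 2321 and 2731 in rods. The part of depth in this difference was not tested. The mix of opsins in rods was near that in cones, with intervals that did not overlap. Opn1sw made up 62.1% (60.4 to 63.8) and 60.4% (57.7 to 63.0) of opsin UMIs in rods, against 65.3% (64.8 to 65.8) and 64.3% (63.4 to 65.1) in cones. Opsin UMIs in rods are taken here as background, and whether rods express the opsins was not tested.

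**Figure D1:**
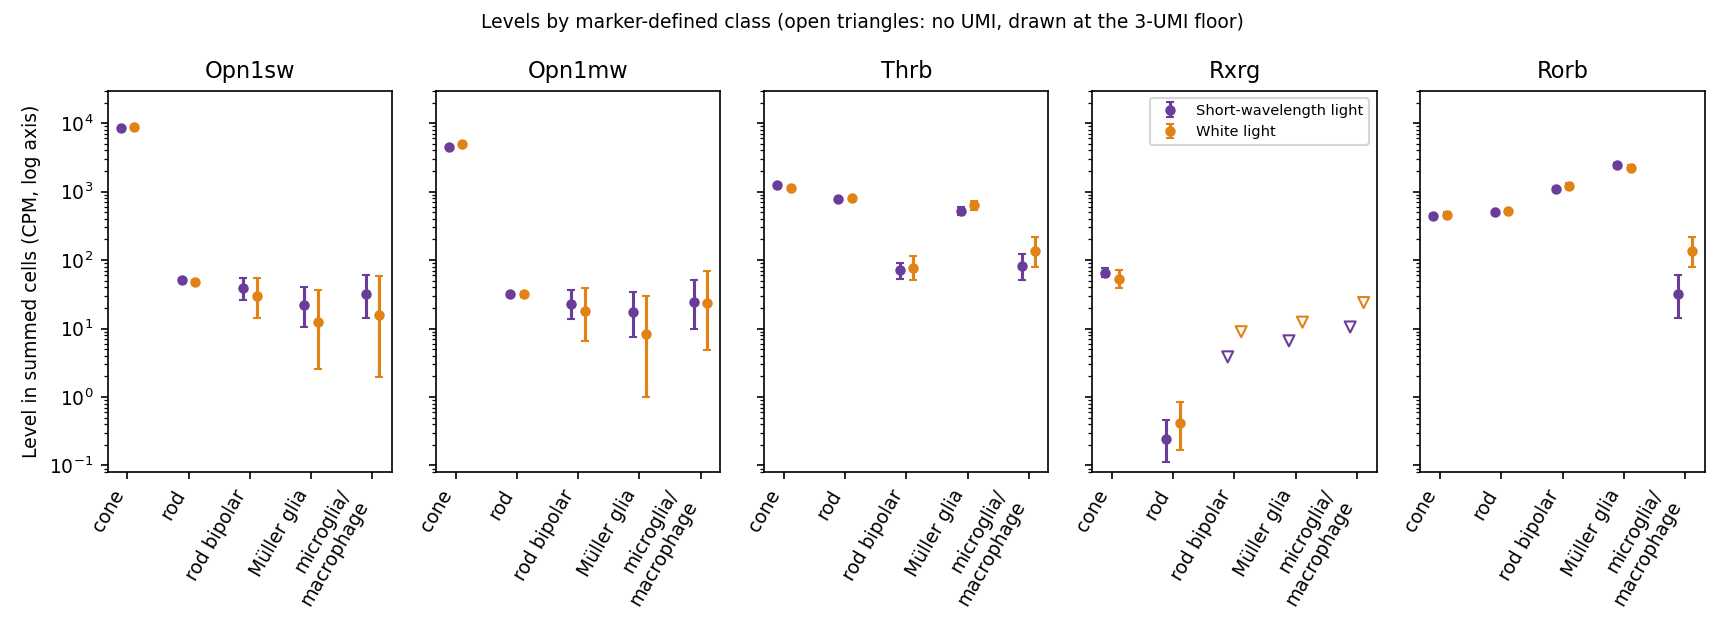
Level of each gene (CPM, log axis) in the summed cells of 5 marker-defined classes of both libraries, with exact Poisson intervals for counting error. Opn1sw, Opn1mw and Rxrg stood more than 100-fold higher in cones than in rods, while Thrb and Rorb were seen across classes. Open triangles mark classes with no UMI, drawn at the level that 3 UMIs would give.

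Among the receptors, Rxrg was far higher in cones than in rods, at a low count. Its 156 and 48 UMIs in cones gave 65.6 CPM (55.7 to 76.8) and 53.2 CPM (39.2 to 70.6). Rods, with many more cells, gave 9 and 7 UMIs, or 0.242 and 0.413 CPM, so that cones were 272-fold (140 to 605) and 129-fold (58.0 to 338) higher. No UMI of Rxrg was found in barcodes with rod bipolar, Müller glia or microglia or macrophage markers, where the level that 3 UMIs would give ranged from 3.85 to 23.9 CPM. Those classes were too small to be ranked against rods.

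Thrb was highest in cones but far from restricted to them. It stood at 1251 CPM (1207 to 1297) and 1119 CPM (1051 to 1190) in cones, and at 773 CPM (764 to 782) and 798 CPM (784 to 811) in rods. Cones were 1.62-fold (1.56 to 1.68) and 1.40-fold (1.31 to 1.495) above rods. Müller glia-marker barcodes followed at 522 CPM (457 to 592) and 627 CPM (531 to 735). Rod bipolar-marker barcodes, at 70.7 CPM (53.2 to 92.0) and 77.8 CPM (50.8 to 114), did not differ beyond counting error from microglia or macrophage-marker barcodes, at 80.7 CPM (51.1 to 121) and 135 CPM (78.9 to 217). Rods stood 9.58-fold (6.38 to 15.1) and 5.89-fold (3.68 to 10.1) above the microglia or macrophage level, while the rod level of Opn1sw lay within counting error of the level there (1.64, 0.860 to 3.58, and 3.03, 0.837 to 25.1).

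Rorb had a different order. It was highest in Müller glia-marker barcodes, at 2436 CPM (2295 to 2584) and 2223 CPM (2039 to 2419), and next in rod bipolar-marker barcodes, at 1100 CPM (1027 to 1176) and 1214 CPM (1099 to 1338.5). Rods, at 511 and 513 CPM, lay above cones, at 446 CPM (420 to 474) and 457 CPM (414 to 503). Cones stood at 0.873 of the rod level (0.820 to 0.929) and 0.890 (0.805 to 0.983). The lowest class was microglia or macrophage-marker barcodes, at 31.6 CPM (14.4 to 59.9) and 135 CPM (78.9 to 217). Of 3749 genes with at least 50 UMIs in the cones of each library, 19.7% under short-wavelength and 17.9% under white light lay wholly beyond 1.5-fold higher in cones than in rods, and 10.1% and 9.07% wholly beyond 1.5-fold lower. Opn1sw and Opn1mw were higher by this rule in both libraries. Thrb met it in the short-wavelength library, where the call was lost with doublets kept (1.55, 1.49 to 1.60), and not in the white-light library. Rorb met neither rule. Whether the Thrb ratio differs between libraries was not tested. Rxrg had 48 UMIs in white-light cones and so fell outside that count.

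Opsin co-expression was read in cones with at least 10 opsin UMIs, 356 under short-wavelength and 122 under white light, which left 12 and 20 cones aside. At least 3 UMIs of each opsin were found in 201 short-wavelength cones, 56.5% (51.1 to 61.7), and in 62 white-light cones, 50.8% (41.6 to 59.98). These intervals overlap, so no difference in co-expression between lights was detectable at this depth. In rods, whose median depth was lower, the same criterion was met by 0 of 13048 and 1 of 4988 cells. The exact interval of the count of 0 reaches 0.0283%, and 3 counts of the total would be 0.0230%. When each cell was thinned to 1000 UMIs, 31.3% (26.5 to 36.4) and 35.0% (26.5 to 44.2) of cones met it, and 0 of 13040 and 0 of 4724 rods. The exact intervals of these rod counts reach 0.0283% and 0.0781%, and 3 counts of the total would be 0.0230% and 0.0635%. Thinning left out 1 and 2 of these cones and 8 and 264 rods. The intervals of the libraries overlapped after thinning too, so no order of the libraries was detectable at either depth. Co-expression stayed far more frequent in cones than in rods as defined here. The rod rule kept out barcodes with more than a low share of cone markers, and cones with few opsin UMIs were left aside. The size of this gap is therefore partly set by these rules. Co-expression in rods under a wider rod rule was not tested.

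The remaining cones leaned to 1 opsin. No Opn1sw UMI was found in 94 cones (26.4%, 21.9 to 31.3) and 32 cones (26.2%, 18.7 to 35.0). No Opn1mw UMI was found in 24 cones (6.74%, 4.37 to 9.87) and 13 cones (10.7%, 5.80 to 17.5). The share of opsin UMIs that came from Opn1sw had a median of 65.7% and 70.1% across cones, and its lower quartile was 0% in both libraries. Only 18.3% (14.4 to 22.7) and 21.3% (14.4 to 29.6) of cones had a share from 25% to under 75%. Most cones lay near the ends or on the Opn1sw side of the scale.

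**Figure D2:**
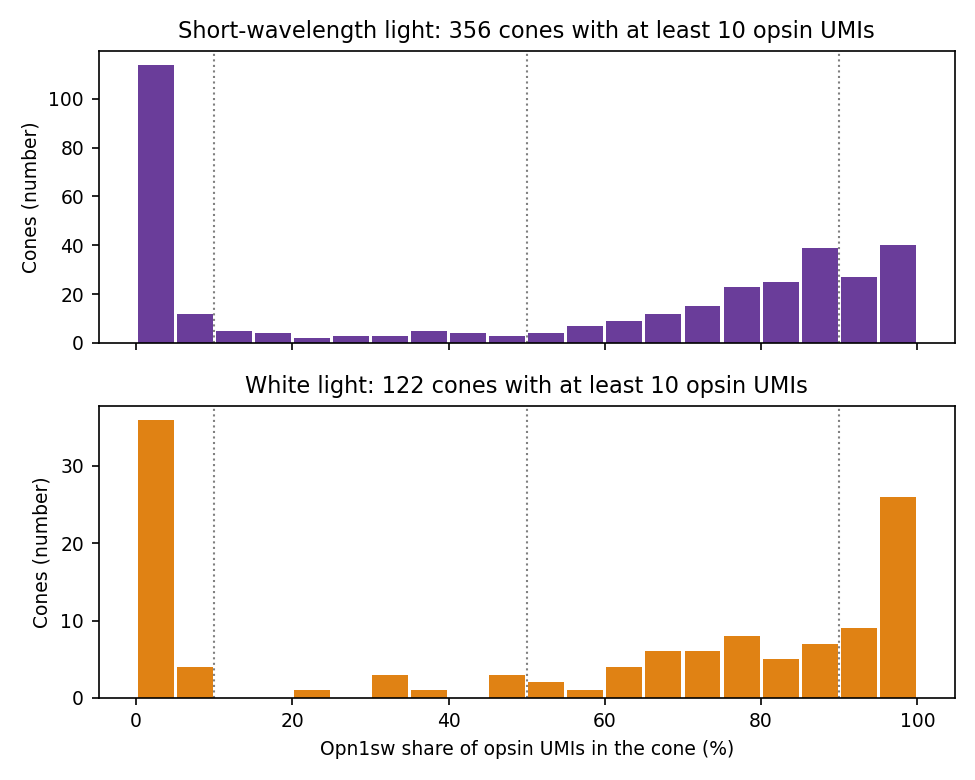
Number of cones by Opn1sw share of opsin UMIs (5% steps) in each library, for cones with at least 10 opsin UMIs, with dotted lines at 10%, 50% and 90%. The tallest bar in both libraries is the one under 5%, with 114 and 36 cones, and a broad second group rises above 50%.

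**Figure D3:**
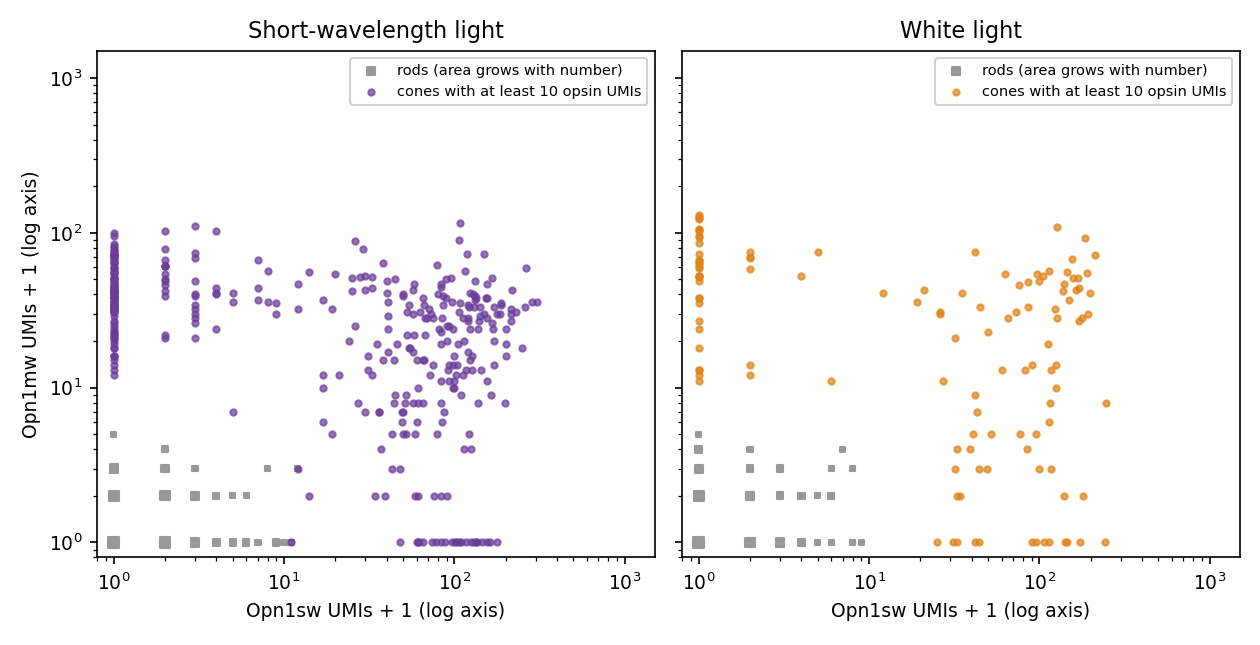
Opn1sw against Opn1mw UMIs per cell (1 added to each, log axes), 1 point per cone with at least 10 opsin UMIs and grey squares for rods. Cones with both opsins fill the upper right, Opn1mw-only cones stand along the left edge, and rods stay in the lower left corner, with at least 10 opsin UMIs in 3 short-wavelength rods and 0 white-light rods.

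Cones were divided by the Opn1sw share of their opsin UMIs into under 10%, 10 to 50%, 50 to 90% and at least 90%. Under short-wavelength light these held 126, 29, 134 and 67 cones, and under white light 40, 8, 39 and 35. The opsins defined these groups, so their levels are a description. In cones under 10%, Opn1sw stood at 69.3 CPM (52.9 to 89.2) and 41.2 CPM (21.9 to 70.4), which is 1.34 times (1.02 to 1.74) and 0.852 times (0.452 to 1.47) its level in rods. Opn1sw in these cones was therefore at or close to the rod level. They had a median of 6712 and 8004 UMIs, against 2321 and 2731 in rods. Müller glia-marker barcodes, with a median of 6106 and 8036 UMIs, stood at 22.01 CPM (10.6 to 40.5) and 12.4 CPM (2.55 to 36.2). Against these, the intervals stand apart in the short-wavelength library and overlap in the white-light library. Whether these cones express Opn1sw was not tested. In cones of at least 90%, Opn1mw stood at 790 CPM (700 to 888) and 571 CPM (461 to 701), or 25.1 times (21.9 to 28.6) and 18.0 times (14.3 to 22.5) its rod level. Most of this came from cones just above the limit. Opn1mw stood at 1639 CPM (1435 to 1864.5) and 1783 CPM (1350 to 2310) in the 27 and 9 cones of 90 to 95%, and at 222 CPM (163 to 295) and 271 CPM (189 to 377) in the 40 and 26 cones of at least 95%. These last include all 24 and 13 cones without an Opn1mw UMI.

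Total opsin also differed between these groups. Both opsins together stood at 6539, 8367, 18463 and 19488 CPM from the lowest to the highest share under short-wavelength light, and at 7710, 9360, 17762 and 20694 CPM under white light. Cones with mostly Opn1sw transcripts thus carried more opsin UMIs in all than cones with mostly Opn1mw transcripts, in both libraries. Opn1mw itself stood at 6470, 5641, 3922 and 790 CPM, and at 7668, 5862, 4505 and 571 CPM. UMIs count transcripts by their 3′ ends and were not scaled by length.

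Thrb, which had no part in defining the groups, was lowest in the cones with most Opn1sw. From the lowest to the highest share it stood at 1467 CPM (1388 to 1550), 1294 CPM (1155 to 1446), 1221 CPM (1150 to 1295) and 767 CPM (679 to 864) in the short-wavelength library. In the white-light library it stood at 1182 CPM (1065 to 1308), 1817 CPM (1467 to 2226), 1215 CPM (1101 to 1338) and 689 CPM (567 to 830). The group of at least 90% lay below the other 3 in both libraries, with no overlap of intervals. The second group of white-light cones, the highest, rests on 8 cells.

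Opn1sw-dominant cones (at least 90%) had 0.537 (0.470 to 0.611) and 0.543 (0.437 to 0.669) of the Thrb level of Opn1mw-rich cones (under 50%), which stood at 1430 CPM (1360 to 1502) and 1271 CPM (1158 to 1391). Set against cones of 50 to 90%, which carry both opsins, the ratio was 0.629 (0.548 to 0.719) and 0.567 (0.456 to 0.701). Opn1sw-dominant cones stood at 0.993 (0.878 to 1.12) and 0.864 (0.710 to 1.04) of the rod level, so no excess of Thrb over rods was detectable in them. Within this group, Thrb stood at 1039 CPM (878 to 1221) and 813 CPM (531 to 1192) in cones of 90 to 95%, and at 586 CPM (487 to 699) and 659 CPM (526 to 815) in those of at least 95%.

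The share of cells with a Thrb UMI was compared at equal depth. After thinning to 1000 UMIs, 73.0% (64.4 to 80.5) and 65.0% (48.3 to 79.4) of cones under 10% had a Thrb UMI, against 47.0% (34.6 to 59.7) and 39.4% (22.9 to 57.9) of Opn1sw-dominant cones. The intervals stand apart in the short-wavelength library and overlap in the white-light library. In rods the figure was 49.4% (48.5 to 50.3) and 51.1% (49.7 to 52.6). Of the 3749 genes, 8.32% in the short-wavelength and 7.58% in the white-light library were lower in Opn1sw-dominant cones with an interval that excluded 1, and 2.96% were in both. Thrb was among the last. Wholly beyond 1.5-fold lower were 0.453% and 1.2%, and 0.347% in both libraries. Thrb met that rule in the short-wavelength library and missed it in the other, where its bound was 0.669. The short-wavelength call was lost at a cone marker limit of 2% (0.631, 0.540 to 0.734), with Opn1sw dominance taken from 80% (0.688, 0.630 to 0.7502), with low rod RNA and with high Malat1. The white-light interval met the rule at a cone marker limit of 0.5% (0.504, 0.410 to 0.616) and with doublets kept (0.539, 0.439 to 0.656). It also did with at least 20 opsin UMIs (0.526, 0.424 to 0.649), thinned (0.323, 0.167 to 0.583) and with low Malat1. In these settings the short-wavelength interval met it too. Rorb, the other receptor counted, met neither rule.

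Depth and nuclear RNA moved with these groups. Opn1sw-dominant cones had a median of 5218 and 3271 UMIs, against 6774 and 7554.5 in Opn1mw-rich cones. Malat1, a nuclear RNA, made up a median of 3.64% and 1.71% of their UMIs, against 4.16% and 3.65%. The panel of rod markers made up a median of 1.24% and 1.48%, against 0.993% and 0.966%. Among cones with a Malat1 share above the library median the Thrb ratio was 0.587 (0.494 to 0.695) and 0.610 (0.479 to 0.770), and among the others 0.479 (0.387 to 0.587) and 0.373 (0.219 to 0.606). In cones with at least 3000 UMIs it was 0.561 (0.490 to 0.641) and 0.587 (0.468 to 0.729). In cones with rod RNA below the median it was 0.681 (0.563 to 0.819) and 0.551 (0.389 to 0.762). Thrb was lower in Opn1sw-dominant cones in each of these subsets.

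**Figure D4:**
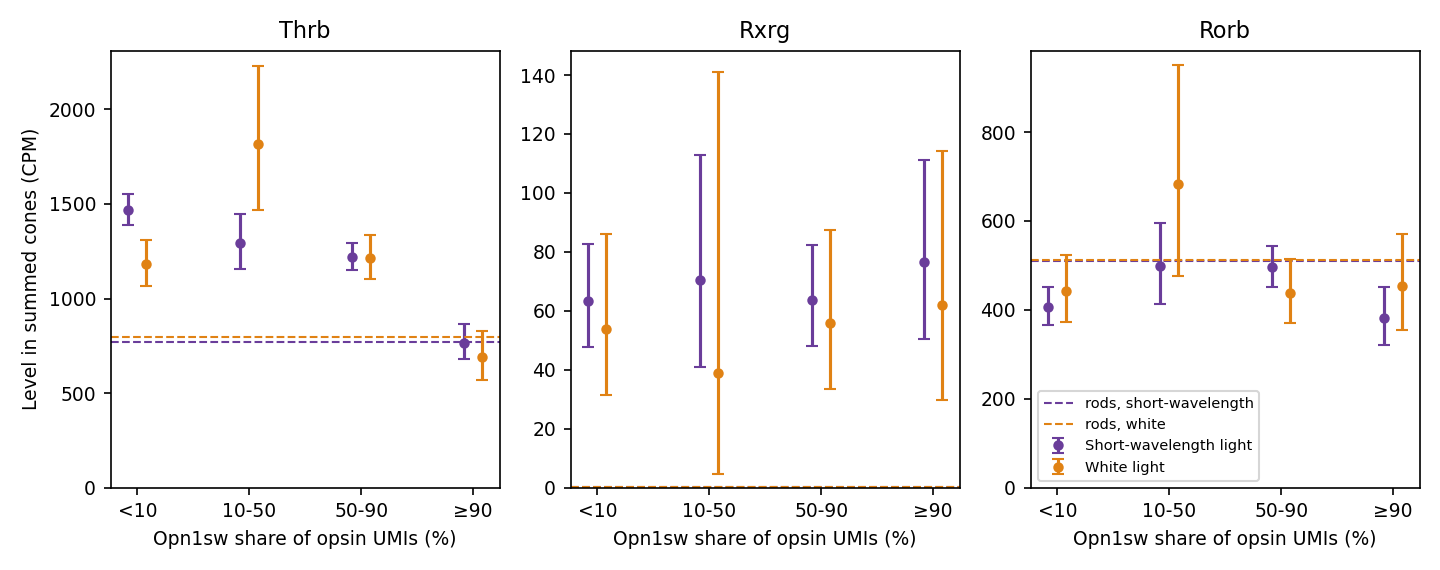
Thrb, Rxrg and Rorb (CPM, linear axes from 0) in cones summed by Opn1sw share, with exact Poisson intervals for counting error, and the rod level of each library as a dashed line. Thrb in the group of at least 90% stands at 767 and 689 CPM, at the rod lines and below every other group, while Rxrg and Rorb intervals overlap across most groups.

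For Rxrg and Rorb, no difference of this kind was detectable over all cones. Rxrg stood at 63.5, 70.5, 63.6 and 76.5 CPM from the lowest to the highest share under short-wavelength light, and at 53.9, 39.1, 55.9 and 62.1 CPM under white light. All 4 intervals overlap in each library. The ratio of Opn1sw-dominant to Opn1mw-rich cones was 1.18 (0.726 to 1.85) and 1.20 (0.498 to 2.71), from 27 against 72 and from 10 against 19 UMIs. A difference as large as that of Thrb lies outside the short-wavelength interval and inside the white-light one. Among white-light cones the ratio was 1.98 (0.725 to 5.26) with a Malat1 share above the median and 0.245 (0.00552 to 1.83) in the others.

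Rorb stood at 406, 498, 496 and 382 CPM under short-wavelength light and at 444, 684, 438 and 453 CPM under white light. The same ratio was 0.897 (0.735 to 1.09) and 0.950 (0.713 to 1.26). Both intervals include 1. The short-wavelength interval excluded 1 with doublets kept (0.831, 0.696 to 0.988) and at a cone marker limit of 2% (0.756, 0.576 to 0.980). Among white-light cones the ratio was 1.24 (0.894 to 1.71) with a Malat1 share above the median and 0.439 (0.221 to 0.812) in the others. The difference between these subsets was not tested. Under short-wavelength light Rorb was lower in Opn1sw-dominant cones than in cones of 50 to 90% (0.770, 0.631 to 0.936), and under white light it was not (1.03, 0.771 to 1.38).

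Among all genes counted, 20 of the 3749 lay wholly beyond 1.5-fold between Opn1sw-dominant and Opn1mw-rich cones in the same direction in both libraries, 7 higher (0.187%) and 13 lower (0.347%). Wholly beyond 1.5-fold higher were 0.4% in the short-wavelength and 0.32% in the white-light library. Opn1sw and Opn1mw are among the 20 because they define the groups. Higher in Opn1sw-dominant cones were Nrxn3, a synaptic adhesion gene, at 7.24-fold (6.19 to 8.50) and 7.17-fold (5.51 to 9.42), and Ccdc136 at 6.53-fold (5.69 to 7.50) and 6.66-fold (5.24 to 8.53). Syndig1l, a relative of a synapse differentiation gene, was 6.18-fold (4.09 to 9.51) and 7.52-fold (3.62 to 17.1) higher. Guca1a, which encodes a guanylate cyclase activator of photoreceptors, was 1.65-fold (1.54 to 1.76) and 1.70-fold (1.55 to 1.87) higher. Ccdc136 is a neighbour of Opn1sw: it spans chr6:29396309-29426994 on the plus strand, 7.84 kb from the end of the GENCODE span of Opn1sw. It was the only one of 4 genes within 50 kb of that span with enough UMIs to be counted.

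Lower in Opn1sw-dominant cones was Cdh12, a cadherin, with 0 and 1 UMIs against 123 and 77 in Opn1mw-rich cones. With 3 UMIs over the group taken as the floor, it would be 13.1-fold lower under short-wavelength light. The exact interval of the ratio reaches 0.0955, or 10.5-fold lower, and the white-light ratio was 0.0296 (0.000739 to 0.170). Mdga2, a synaptic membrane protein gene, had ratios of 0.112 (0.0551 to 0.203) and 0.0660 (0.00784 to 0.248). Smug1, a DNA repair glycosylase gene, had 0.203 (0.127 to 0.309) and 0.150 (0.0670 to 0.292). Rgs7, a regulator of G-protein signalling, had 0.314 (0.218 to 0.438) and 0.244 (0.133 to 0.417). These genes were named by these same ratios, under a rule that Thrb did not meet at the main settings. That their folds are larger than that of Thrb follows from that choice.

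Patterns over the 4 share groups of both libraries (8 values, log2 of CPM plus 5) were compared by Pearson's r among 1843 genes with at least 100 UMIs in the cones of each library. These values share cells, library depth and the opsin share itself, and they are given as a description. Most like Opn1sw were Syndig1l (r = 0.991), Ccdc136 (r = 0.974) and 5430419D17Rik (r = 0.945). Most like Opn1mw were C230014O12Rik (r = 0.952), Arr3 (r = 0.949) and Mdga2 (r = 0.948). Arr3 was part of the rule that chose the cones. Its ratio of Opn1sw-dominant to Opn1mw-rich cones was 0.501 (0.477 to 0.527) and 0.489 (0.451 to 0.529). The genes of that rule made up a median of 2.40% and 2.42% of UMIs in Opn1sw-dominant cones, against 2.74% and 2.59%. Whether the rule chose cones unevenly by opsin share was not tested. Most like Thrb were Clcn3 (r = 0.987), Tshz2 (r = 0.970) and Nedd4l (r = 0.966), of which Clcn3 ranged over only 0.23 on the log2 scale. Between members, r was 0.899 for Opn1mw and Thrb and -0.45 for Opn1sw and Thrb.

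A list of 55 genes of cone patterning and nuclear receptor signalling placed the receptors among related genes. Of these, 25 were counted. In the short-wavelength library 2 were higher and 6 lower in Opn1sw-dominant cones with intervals that excluded 1, where 6.59% and 8.32% of all genes counted were. In the white-light library 5 were higher and 3 lower, where 5.79% and 7.58% were. Of those 5, Nrl (1.43, 1.09 to 1.87), Mef2c (1.76, 1.11 to 2.75) and Samd11 (1.61, 1.01 to 2.56) are more abundant in rods than in cones. The others were Thra and Mef2d (1.44, 1.06 to 1.96). The rod marker share in white-light Opn1sw-dominant cones was 1.48% against 0.966%. In the short-wavelength library it was 1.24% against 0.993%. There the ratios were 0.919 (0.728 to 1.15) for Nrl, 0.669 (0.479 to 0.917) for Mef2c and 0.866 (0.645 to 1.15) for Samd11. The part of rod RNA in these counts was not tested. Lower in both libraries were 2, Thrb and Samd7, against 2.96% of all genes counted, and 0 were higher in both, against 1.87%. Samd7, a rod-enriched chromatin regulator gene, had ratios of 0.380 (0.235 to 0.587) and 0.355 (0.176 to 0.656). The median log2 difference of the list was -0.16 and 0.10, beside -0.03 and -0.02 over all genes counted. Thra, the other thyroid hormone receptor gene, stood at 45.9 and 55.4 CPM in cones. Its ratio was 0.715 (0.359 to 1.32) in the short-wavelength library and 4.56 (2.04 to 10.9) in the other, so it had no common direction.

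Other regulators of photoreceptor identity showed no common difference. Crx, a factor that drives photoreceptor genes, had ratios of 0.917 (0.768 to 1.09) and 1.14 (0.889 to 1.47). Rora, a relative of Rorb, had 1.08 (0.937 to 1.24) and 0.667 (0.514 to 0.859). Neurod1, a factor needed for Thrb in cones, had 1.07 (0.961 to 1.19) and 0.965 (0.7996 to 1.16). Six6, an eye field factor, had 1.51 (1.12 to 2.03) and 1.23 (0.789 to 1.88), and Ppargc1a, a nuclear receptor coactivator gene, 0.615 (0.429 to 0.863) and 0.692 (0.419 to 1.10). These last have the same direction in both libraries, with an interval that excludes 1 in only one.

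Between the lights, ratios in cones were close to 1 for the opsins, Thrb and Rorb, and that of Rxrg was imprecise. The ratio of short-wavelength to white light in cones was 0.971 (0.946 to 0.997) for Opn1sw, 0.927 (0.895 to 0.960) for Opn1mw, 1.12 (1.04 to 1.20) for Thrb, 1.23 (0.887 to 1.74) for Rxrg and 0.976 (0.871 to 1.10) for Rorb. Of the 3749 genes, 15.7% had an interval that excluded 1 in this comparison, and 3 of the 4 members counted did so. With 1 library on each side, that share measures counting error against whatever differs between 2 libraries. Only 0.133% of genes lay wholly beyond 1.5-fold, and none of the 4 members counted did. Thinned to 1000 UMIs per cell, the Rxrg ratio was 3.86 (1.20 to 19.7), with an Rxrg UMI left in 8.17% and 2.19% of cones.

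The opsin differences had no stable direction. For Opn1sw the ratio was 1.01 with a cone marker limit of 0.5% and also with one of 2%, and for Opn1mw it was 1.05 after thinning to 1000 UMIs. In cones of 50 to 90% the ratio was 1.10 (1.06 to 1.13) for Opn1sw and 0.871 (0.820 to 0.925) for Opn1mw. In Opn1sw-dominant cones the ratios were 0.929 (0.891 to 0.969) and 1.38 (1.09 to 1.77), the other way round. The groups are set by the same opsins, so these values describe how cones fell into them.

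Thrb was higher under short-wavelength light in all 12 alternatives computed for it, from 1.06 to 1.27. With doublets kept the interval included 1 (1.06, 0.991 to 1.13), as it did in cones with rod RNA below the median (1.09, 0.992 to 1.19). By share group the ratio was 1.24 (1.11 to 1.40), 0.712 (0.563 to 0.908), 1.005 (0.896 to 1.13) and 1.11 (0.889 to 1.40), so the groups did not move as one. In rods the Thrb ratio was 0.969 (0.949 to 0.989), where 43.2% of genes had an interval that excluded 1 and 25.8% were lower by it, and Rorb stood at 0.996 (0.971 to 1.02). The median share of rod markers in cones was also lower under short-wavelength light (1.10% against 1.27% of UMIs), and that of Malat1 higher (4.13% against 3.35%). Their part in the Thrb difference was not tested.

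**Figure D5:**
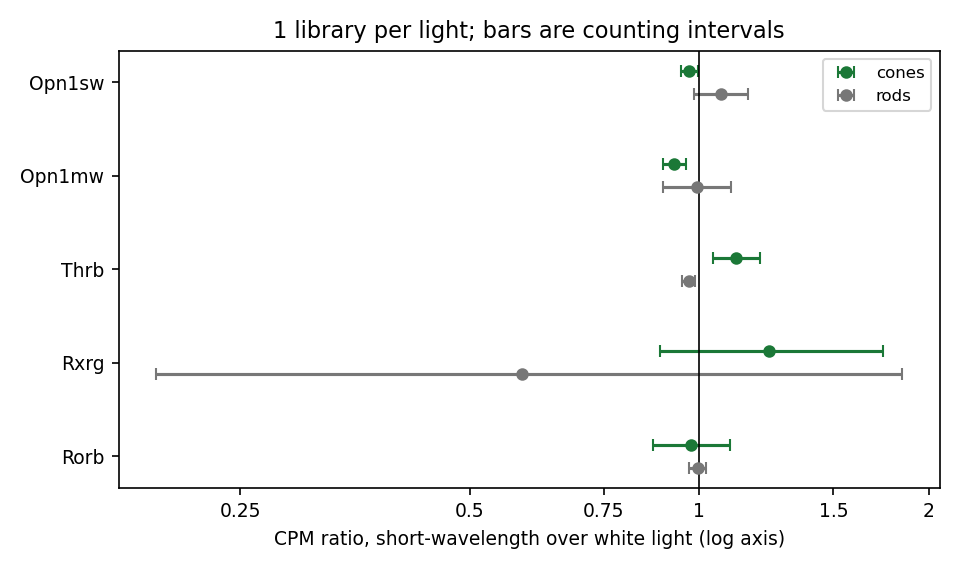
Ratio of CPM under short-wavelength to white light for each gene in cones (green) and rods (grey), on a log axis, with exact conditional binomial intervals for counting error and 1 library per light. Thrb lies at 1.12 in cones and 0.969 in rods, and Rxrg, with 16 UMIs in all rods, has the widest intervals.

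Of the patterning list, 2 of 25 members were higher under short-wavelength light in cones, Thrb and Neurod1 (1.22, 1.13 to 1.31), where 6.48% of all genes counted were. Lower were 3, where 9.18% of all genes were: Nrl, the rod-determining factor (0.719, 0.633 to 0.817), Six3, a homeobox factor (0.731, 0.554 to 0.970), and Samd7 (0.723, 0.595 to 0.882). Nrl and Samd7 are more abundant in rods than in cones. The median log2 difference of the list was 0.04, beside -0.01 over all genes counted.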

How the data were processed

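Cells of digested retina were barcoded in droplets with 10x Genomics 3′ kits, per the labels' protocols, which leave the kit version at v3.1/v4. The authors deposited UMI counts for each gene in each barcode, not normalized, from Cell Ranger 9.0.0 per the file headers and with mm10 per the submitters' processing notes, which also name Seurat and edgeR.

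A barcode was kept if it had 300 genes or more and no more than 20% mitochondrial UMIs. Scrublet (scanpy 1.11.5, Python 3.11.15) marked 1 barcode in each library by its automatic threshold, so a fixed rate was taken instead (0.8% per 1000 barcodes), which removed the top 2204 and 267 by score, 60 and 15 of them within the cone rule. Between 0.75% and 1% cone marker share lay 11 and 15 barcodes, and 11 and 15 cones lay between 1% and 1.25%. Rods had at least 1% of UMIs from a panel of rod markers that includes Gnat1, Sag and Pde6g, under 0.25% from cone markers and under 1% from any other panel. The other classes had at least 1% from their own panel, under 1% rod and under 0.25% cone markers. These class rules were set after the data were seen.

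UMIs were summed per group. CPM carry exact Poisson intervals, shares exact Clopper-Pearson intervals, and ratios exact conditional binomial intervals (scipy 1.17.1). No p-value was computed. The steps were tested on simulated data. Genes named by opsin share were the first 5 in each direction past 1.5-fold in both libraries, ranked by the nearer bound, without mitochondrial, ribosomal, haemoglobin, Gm and Rik genes or genes more abundant in rods; the 3 most alike were named for Opn1sw, Opn1mw and Thrb, and patterning genes needed 50 UMIs in each library. The members and lists were chosen with earlier results of these data known. Promoter windows came from RefSeq. Alternatives covered marker limits, filters, doublets, thinning, rod RNA, Malat1, opsin minimums, other denominators, per-cell means and TMM scaling (edgeR 4.0.16 in R 4.3.3).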

Additional observations from a re-analysis of the deposited data

How the results depend on the processing

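Of 237 values recomputed under alternatives, 184 stayed within the interval or margin of the reported value, 48 moved and 5 turned direction. No paired analysis was possible because each light condition has 1 library. The alternatives at 3000 UMIs, those for cones against rods and the Malat1 division of the light comparison were chosen after seeing the data. The Thrb ratio of Opn1sw-dominant to Opn1mw-rich cones stayed below 1 in all 15 alternatives of each library, from 0.441 to 0.688 and from 0.323 to 0.656. Under short-wavelength light it moved to 0.631 at a 2% marker limit, 0.681 with low rod RNA, 0.441 thinned, 0.688 from an 80% share and 0.464 as a per-cell mean. Under white light it moved to 0.323 thinned, 0.373 with low Malat1 and 0.430 as a per-cell mean. White-light Rorb moved to 0.667 thinned, 0.439 with low Malat1 and 0.628 as a per-cell mean, and Rxrg to 0.245 with low Malat1. Co-expression moved to 31.3% and 35.0% when thinned. The Opn1sw share of opsin UMIs moved to 64.0% and 61.3% at the 2% limit, 56.8% and 57.9% with low rod RNA, 68.4% and 70.8% thinned, 49.9% and 54.2% as a per-cell mean, 64.2% and 62.1% in cones with at least 3000 UMIs, and, under white light, 65.1% with doublets kept. Against rods, cone Opn1sw moved to 158-fold and 166-fold with doublets kept and 131-fold and 119-fold with rods allowed up to 1% cone markers. Opn1mw moved to 160-fold and 177-fold at the 2% limit, 136-fold with doublets kept (short-wavelength light) and 136-fold and 130-fold with the wider rod rule. Thrb under short-wavelength light moved to 1.68-fold at the 2% limit and 1.55-fold with doublets kept. Between lights, Opn1sw turned to 1.01 at the 0.5% limit, 1.01 at the 2% limit and 1.04 with high Malat1, and moved to 0.842 with low rod RNA, 0.938 thinned and 0.822 with low Malat1. Opn1mw turned to 1.05 thinned and 1.09 as a per-cell mean, and moved to 0.966 at the 0.5% limit, 0.879 with low rod RNA, 0.888 with high Malat1 and 0.893 in cones with at least 3000 UMIs. Thrb moved to 1.27 thinned and 1.22 with low Malat1, and Rxrg to 3.86 thinned. Genes higher in Opn1sw-dominant cones numbered 15 with a 20 UMI minimum, against 7. With 10 UMIs as the minimum for the patterning list, 1 gene was higher in both libraries, Vax2, named after its values were seen, against 0. The causes were not tested. Depth limits Rxrg most, with 48 UMIs in white-light cones, and the white-light group of 10 to 50%, with 8 cones.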
